A study of Rattus norvegicus with 3 samples.

Results

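Muscarinic and nicotinic acetylcholine receptor genes were followed in the basolateral amygdala (BLA) of rats held under 3 ways of housing. The group was defined by name: the 5 muscarinic receptor genes Chrm1 to Chrm5 and the nicotinic subunit genes Chrna4, Chrna7 and Chrnb2, together 8 of the 19113 genes listed in the deposited table. All 8 were protein-coding and passed the filter used by the study, a mean scaled count above 1, so that they belonged to the 16775 genes compared. ER rats (enrichment removal, a model of loss) lived in enrichment for 4 weeks and were then housed singly without enrichment, and tissue was taken 2 weeks after removal. EE rats (environmental enrichment) shared a multi-level cage of 10 rats with rotating toys and shelters during the active cycle and were housed singly by day. SH rats (standard housing) of this cohort were kept in pairs. All were adult male Sprague-Dawley rats, 8 weeks old on arrival. For each condition the BLA micropunch RNA of 10 rats was combined into a single pool and sequenced as 1 library, so no difference has a replicate check and none was tested. Social housing differed together with enrichment in every contrast and cannot be told apart from it.

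Acetylcholine reaches the BLA mainly through a dense projection from cholinergic neurons of the basal forebrain, and it shapes arousal, attention and emotional memory there. Muscarinic receptors are single proteins of the G protein-coupled family. Chrm1, Chrm3 and Chrm5 encode the members that couple to Gq, which activates phospholipase C and releases calcium inside the cell. Chrm2 and Chrm4 encode the members that couple to Gi, which lowers cyclic AMP, opens inwardly rectifying potassium channels and, on axon terminals, restrains transmitter release. Nicotinic receptors are cation channels of pentameric build. Chrna4 and Chrnb2 encode subunits that assemble together in the major high-affinity nicotinic receptor of the brain, whereas Chrna7 encodes a subunit that can form a channel by itself and passes calcium readily.

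The 3 libraries held 29558555 (ER), 29263063 (EE) and 30334384 (SH) reads over all listed genes. Values below are scaled counts, that is, reads divided by a size factor of the library, and each ratio stands with its exact 95% interval from the reads, which covers counting error only. A gene met the size rule when its ratio was at least 1.5-fold either way and the interval excluded 1. In EEvSH none of the 8 receptor genes met the size rule, against 2.13% of all genes compared. In ERvSH and in ERvEE 1 of 8 met it, Chrm5 in both, against 1.68% and 1.70% of all genes, and these contrasts share the ER library. The interval alone excluded 1 for 2 of 8 genes in EEvSH (18.2% of all genes), for 3 in ERvSH (15.5%) and for 4 in ERvEE (13.0%). The median log2 ratio of the 8 genes (pseudocount 1) was 0.043 in EEvSH, 0.011 in ERvSH and 0.018 in ERvEE, where all genes compared had medians of 0.0022, 0.0021 and −0.0028. These medians are taken over genes that lay on both sides of 1.

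**Figure D1:**
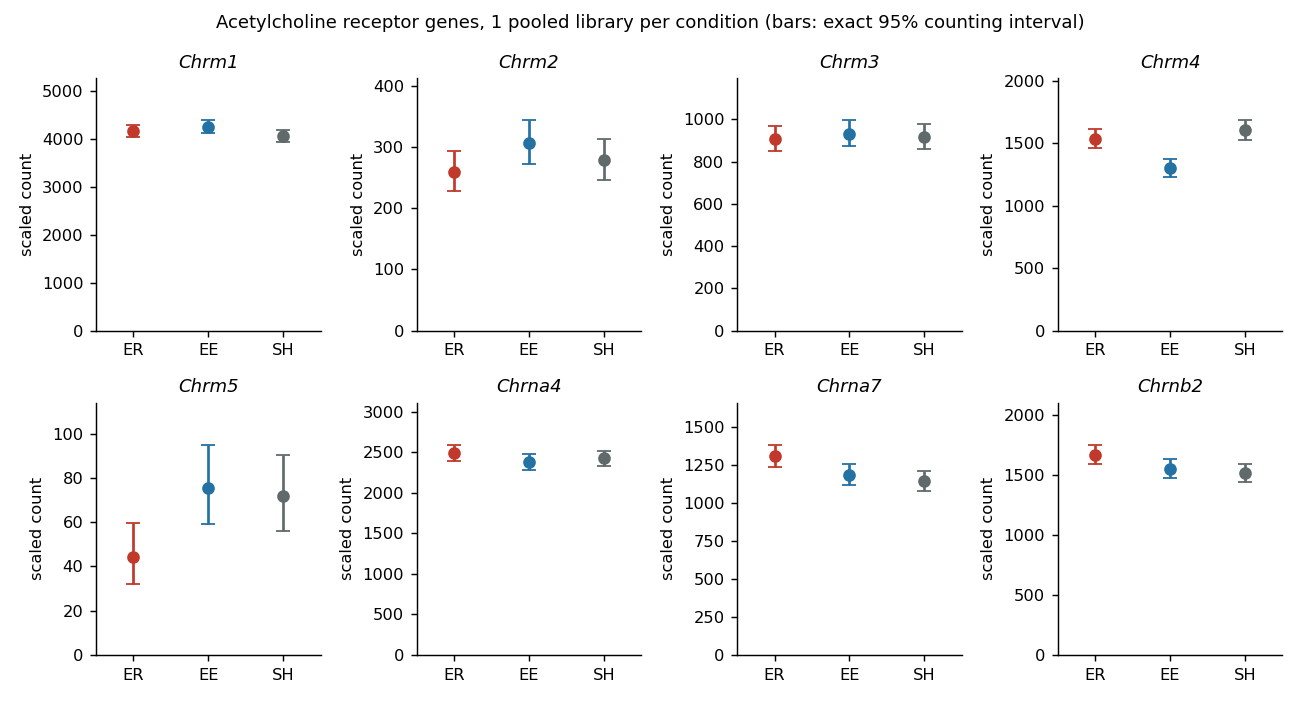
Scaled counts of the 8 receptor genes (y axes from 0) in the ER, EE and SH libraries, 1 pooled library each; bars are exact 95% Poisson intervals of the reads. Chrm5 is lowest in ER at 44.1, Chrm4 is lowest in EE at 1302, and Chrna7 and Chrnb2 are highest in ER at 1310 and 1669.

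Of the Gq-coupled receptors, Chrm1 and Chrm3 were nearly level across the libraries and Chrm5 was lower after enrichment removal. Chrm1, the main muscarinic receptor of forebrain projection neurons, had 4168 scaled counts in ER, 4257 in EE and 4071 in SH. The values lay within a narrow span, with EE highest. The EEvSH ratio was 1.05 (1.001 to 1.09), whose lower end all but touched 1. The ERvSH ratio was 1.02 (0.980 to 1.07) and the ERvEE ratio 0.979 (0.937 to 1.02). Chrm3, a receptor best known from glands and smooth muscle and also found in forebrain neurons, had 907.8 scaled counts in ER, 931.5 in EE and 915.2 in SH. All 3 intervals of its ratios included 1, at 1.02 in EEvSH (0.927 to 1.12), 0.992 in ERvSH (0.903 to 1.09) and 0.975 in ERvEE (0.887 to 1.07). A difference of Chrm3 between the libraries was not detectable at this depth.

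Chrm5, best known from midbrain dopamine neurons and brain vessels, was read sparsely. It had 44.1 scaled counts in ER (43 reads; 31.9 to 59.4), 75.5 in EE (73 reads; 59.2 to 94.9) and 71.7 in SH (72 reads; 56.1 to 90.3). The ER library was the low one, and EE and SH lay side by side. The ratio was 0.615 in ERvSH (0.412 to 0.910) and 0.584 in ERvEE (0.391 to 0.863), and in EEvSH it was 1.05 with a wide interval (0.750 to 1.48). Genes with few reads meet the size rule more often. Of the 1021 genes with a mean scaled count of 50 to 100, a band added after the values were seen, 3.23% were lower by the size rule in ERvSH and 3.72% in ERvEE. The central 90% of log2 ratios in that band ran from −0.50 to 0.49 in ERvSH and from −0.51 to 0.49 in ERvEE, and Chrm5 lay below both at −0.69 and −0.76. In these bulk samples fewer cells that express a gene and less RNA per cell cannot be told apart.

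The value of Chrm5 was also read against genes that share its locus or its pattern. In the RefSeq gene table of GRCr8, Chrm5 on chromosome 3 overlaps a small nucleolar RNA gene and Aven, a gene for an inhibitor of cell death. The library kit keeps the strand, but the counting setting is not given in the sources used here, so reads of the overlap may not be cleanly assigned. Aven had 315.9 scaled counts in ER, 293.6 in EE and 300.7 in SH, with a ratio of 1.05 in ERvSH (0.893 to 1.24) and 1.08 in ERvEE (0.913 to 1.27). It did not share the low ER value. Among 12326 coding genes with a mean of at least 50 and an ordinary symbol, the 5 whose pair of log2 ratios in EEvSH and ERvSH lay nearest to that of Chrm5, over 3 libraries, were Ccer2 (distance 0.033), Cmklr1, the chemerin receptor (0.051), Rbl1, a pocket protein of the cell cycle (0.071), Brca1, a DNA repair gene (0.080), and Card14 (0.12). With 3 libraries a pattern holds little information, and these genes are named as a description.

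**Figure D2:**
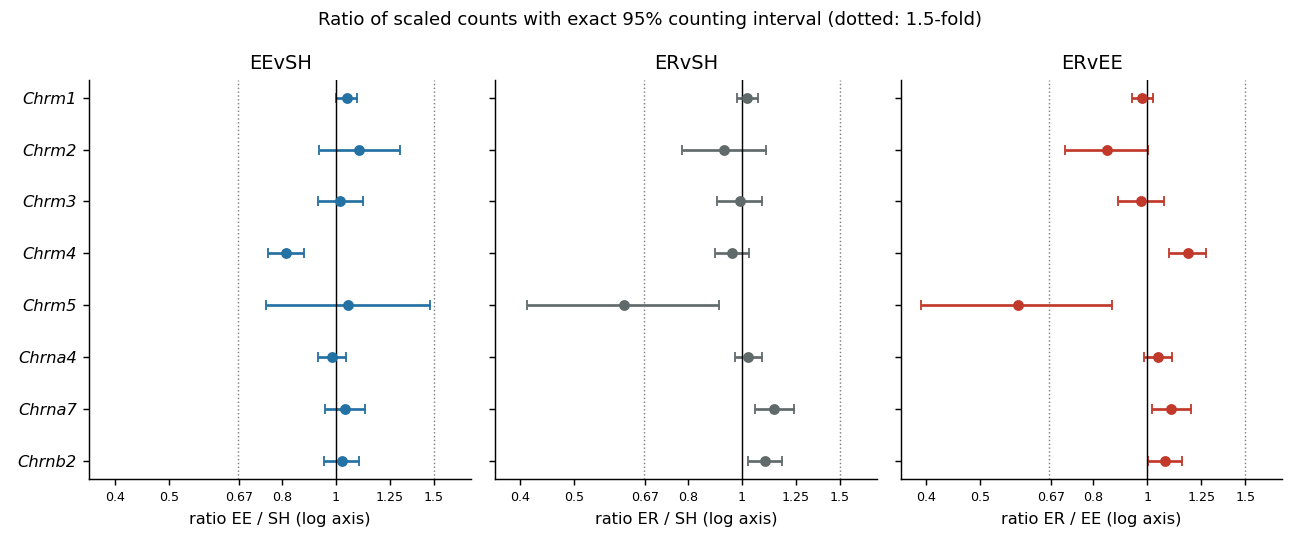
Ratio of scaled counts (x axis, log scale) for each receptor gene in EEvSH, ERvSH and ERvEE; points are ratios, bars exact 95% counting intervals, dotted lines 1.5-fold. Chrm5 lies past the dotted line in ERvSH (0.615) and ERvEE (0.584), and Chrm4 lies apart from 1 in EEvSH (0.812) and ERvEE (1.18).

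Of the Gi-coupled receptors, Chrm4 was lower in the enriched library than in both others, and Chrm2 did not follow it. Chrm4, known for its high level in striatum, had 1539 scaled counts in ER (1462 to 1619), 1302 in EE (1231 to 1376) and 1603 in SH (1526 to 1684). The EE interval did not overlap the other 2, while the ER and SH intervals did overlap. Set against SH, Chrm4 in EE gave a ratio of 0.812 (0.754 to 0.875). ERvEE, which shares the EE library, gave 1.18 (1.10 to 1.28), and ERvSH gave 0.960 (0.894 to 1.03). These differences stayed under the 1.5-fold rule. Among the 5792 genes with a mean scaled count above 1000, the central 90% of log2 ratios ran from −0.14 to 0.13 in EEvSH and from −0.11 to 0.11 in ERvEE. Chrm4 lay outside both, at −0.30 and 0.24. In that band the interval alone excluded 1 for 30.0% of genes in EEvSH and 19.1% in ERvEE, so an interval apart from 1 was common at this depth. Chrm4 overlaps Mdk, a growth factor gene, in the GRCr8 gene table. Mdk had 426.7 scaled counts in ER, 434.2 in EE and 445.1 in SH and did not share the low EE value, with a ratio of 0.976 in EEvSH (0.852 to 1.12).

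Chrm2, a presynaptic autoreceptor on cholinergic terminals that also lies on interneurons, had 258.5 scaled counts in ER (228 to 292), 306.0 in EE (272 to 343) and 277.8 in SH (246 to 312). EE was the highest library and ER the lowest, and all 3 intervals overlapped. The ratio was 0.845 in ERvEE (0.711 to 1.003), 0.930 in ERvSH (0.782 to 1.11) and 1.10 in EEvSH (0.932 to 1.30). A difference of Chrm2 in either direction was thus not detectable at this depth. Its order of libraries was the reverse of that of Chrm4 for EE. Within a library, Chrm2 gave 0.168 reads per Chrm4 read in ER, 0.235 in EE and 0.173 in SH, a measure that does not depend on scaling between libraries.

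The sequence upstream of Chrm4 is shown because this member differed most in size among those with many reads, and no regulator was measured here. It was taken from RefSeq on GRCr8, plus strand, chr3:98348830-98349129, with 250 bases before and 50 after the transcript start. Capitals mark the GC box, which Sp1-type factors bind, searched as GGGCGG on both strands, with overlapping matches kept. Chrm4 held 5 matches, of which 2 overlap each other, and 33.1% of the 33469 promoters in the table held at least 1.
Chrm4: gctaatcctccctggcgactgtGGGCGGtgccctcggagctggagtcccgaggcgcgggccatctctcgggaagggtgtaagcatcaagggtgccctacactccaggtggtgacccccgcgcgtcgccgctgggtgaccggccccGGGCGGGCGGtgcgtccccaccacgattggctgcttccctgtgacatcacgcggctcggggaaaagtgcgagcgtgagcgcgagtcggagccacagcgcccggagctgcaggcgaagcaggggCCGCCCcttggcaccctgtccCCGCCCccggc
This window had a GC content of 72.0%, where the median promoter had 51.7%. The E-box CACGTG, the cAMP response element TGACGTCA, the Egr1 motif GCGTGGGCG and the TATA box TATAAA, searched on both strands, had no match in it. They occur in 6.42%, 1.83%, 0.544% and 14.2% of promoters. A match is a stretch of letters and not a measured site.

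The make-up of the muscarinic reads shifted with Chrm4 and Chrm5 while their sum stayed level. The 5 genes summed to 6917 scaled counts in ER, 6871 in EE and 6939 in SH, and the ratio of the sums was 0.990 in EEvSH (0.957 to 1.02), 0.997 in ERvSH (0.964 to 1.03) and 1.01 in ERvEE (0.973 to 1.04). Chrm4 took 22.2% of muscarinic reads in ER (exact Clopper-Pearson interval 21.3 to 23.3), 18.9% in EE (18.0 to 19.9) and 23.1% in SH (22.1 to 24.1). Only the EE share stood apart from the others. Chrm1 took 60.3% in ER (59.1 to 61.4), 61.9% in EE (60.8 to 63.1) and 58.7% in SH (57.5 to 59.8). Chrm5 took 0.638% in ER (0.462 to 0.858), 1.10% in EE (0.862 to 1.38) and 1.03% in SH (0.809 to 1.30). With Chrm2 and Chrm4 summed, the Gi-coupled share was 26.0% in ER (24.9 to 27.0), 23.4% in EE (22.4 to 24.4) and 27.1% in SH (26.1 to 28.2). Shares of reads compare a gene across libraries and not genes with each other, since longer transcripts give more reads and lengths were not used here.

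**Figure D3:**
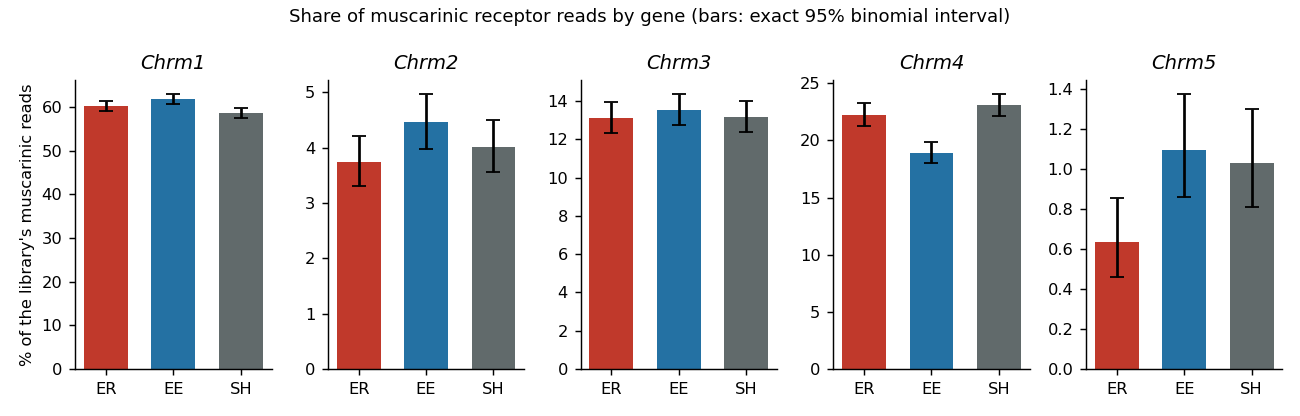
Share of each library's muscarinic reads (y axes, percent, from 0) that came from each receptor gene, in ER, EE and SH; bars are exact 95% binomial intervals. Chrm4 has 18.9% in EE, below 22.2% in ER and 23.1% in SH, and Chrm5 has 0.638% in ER.

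The nicotinic genes were highest in the ER library, by small amounts. Chrna7 had 1310 scaled counts in ER (1239 to 1384), 1186 in EE (1118 to 1257) and 1144 in SH (1079 to 1212). ER stood above SH without overlap of the intervals and overlapped EE at its edge. The ratio was 1.14 in ERvSH (1.06 to 1.24), 1.10 in ERvEE (1.02 to 1.20) and 1.04 in EEvSH (0.954 to 1.13). Chrnb2 had 1669 scaled counts in ER (1589 to 1752), 1550 in EE (1472 to 1630) and 1514 in SH (1439 to 1592). ER was again the highest library, and its interval overlapped those of EE and SH by a little. The ratio was 1.10 in ERvSH (1.03 to 1.18), 1.08 in ERvEE (1.003 to 1.16) and 1.02 in EEvSH (0.953 to 1.10). Chrna4 had 2493 scaled counts in ER, 2382 in EE and 2425 in SH, and all intervals of its ratios included 1, at 1.03 in ERvSH (0.971 to 1.09), 1.05 in ERvEE (0.988 to 1.11) and 0.982 in EEvSH (0.928 to 1.04). Chrna4 overlaps Col20a1, a collagen gene, in the GRCr8 gene table. Summed, the 3 nicotinic genes had 5472 scaled counts in ER, 5118 in EE and 5083 in SH, and a ratio of 1.08 in ERvSH (1.04 to 1.12) and 1.07 in ERvEE (1.03 to 1.11). ERvSH and ERvEE share the ER library.

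Genes read as deeply as these often had such intervals. Above a mean scaled count of 1000 the interval was higher than 1 for 12.1% of genes in ERvSH and 9.36% in ERvEE, and the 95th percentile of log2 ratios was 0.11 in both. Chrna7 had log2 ratios of 0.19 in ERvSH and 0.14 in ERvEE, and Chrnb2 of 0.14 and 0.11. Read against Chrna4 within a library, Chrna7 gave 0.526 reads per Chrna4 read in ER, 0.498 in EE and 0.472 in SH, and Chrnb2 gave 0.6695 in ER, 0.651 in EE and 0.624 in SH. Both ratios were highest in ER and lowest in SH. Chrna4 took 45.6% of the reads of the 3 nicotinic genes in ER (44.2 to 46.9), 46.5% in EE (45.1 to 47.9) and 47.7% in SH (46.3 to 49.1). Chrna7 took 23.9% in ER (22.8 to 25.1), 23.2% in EE (22.0 to 24.4) and 22.5% in SH (21.4 to 23.7), and Chrnb2 took 30.5% in ER (29.3 to 31.8), 30.3% in EE (29.0 to 31.6) and 29.8% in SH (28.5 to 31.1). The intervals of each share overlapped between libraries, which does not show that the proportions were equal.

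The upstream sequences of Chrna7 and Chrnb2 are shown because these genes were both highest in ER. They come from RefSeq on GRCr8, both on the minus strand, chr1:126249080-126249379 for Chrna7 and chr2:177487257-177487556 for Chrnb2. Capitals mark the GC box (GGGCGG or its reverse complement) in both and the E-box (CACGTG) in Chrna7.
Chrna7: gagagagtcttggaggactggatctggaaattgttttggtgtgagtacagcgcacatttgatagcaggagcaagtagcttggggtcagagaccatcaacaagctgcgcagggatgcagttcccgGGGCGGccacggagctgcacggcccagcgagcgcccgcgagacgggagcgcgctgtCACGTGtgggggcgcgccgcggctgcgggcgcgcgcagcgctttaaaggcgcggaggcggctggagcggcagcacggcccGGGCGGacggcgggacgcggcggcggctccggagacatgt
Chrnb2: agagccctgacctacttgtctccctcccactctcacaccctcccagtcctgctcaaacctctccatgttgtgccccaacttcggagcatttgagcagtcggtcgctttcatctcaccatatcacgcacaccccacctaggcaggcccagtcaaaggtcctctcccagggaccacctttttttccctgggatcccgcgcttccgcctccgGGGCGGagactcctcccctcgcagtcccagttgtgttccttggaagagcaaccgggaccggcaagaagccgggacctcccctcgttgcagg
Chrna7 held 2 GC boxes and 1 E-box, and Chrnb2 held 1 GC box. The windows had 37 and 14 CpG dinucleotides, where the median promoter had 7. Of the 8 receptor genes, 7 had a sequence in the table. The GC box was found in 6 of these 7, with no match in Chrm1, and the E-box in Chrna7 alone.

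**Figure D4:**
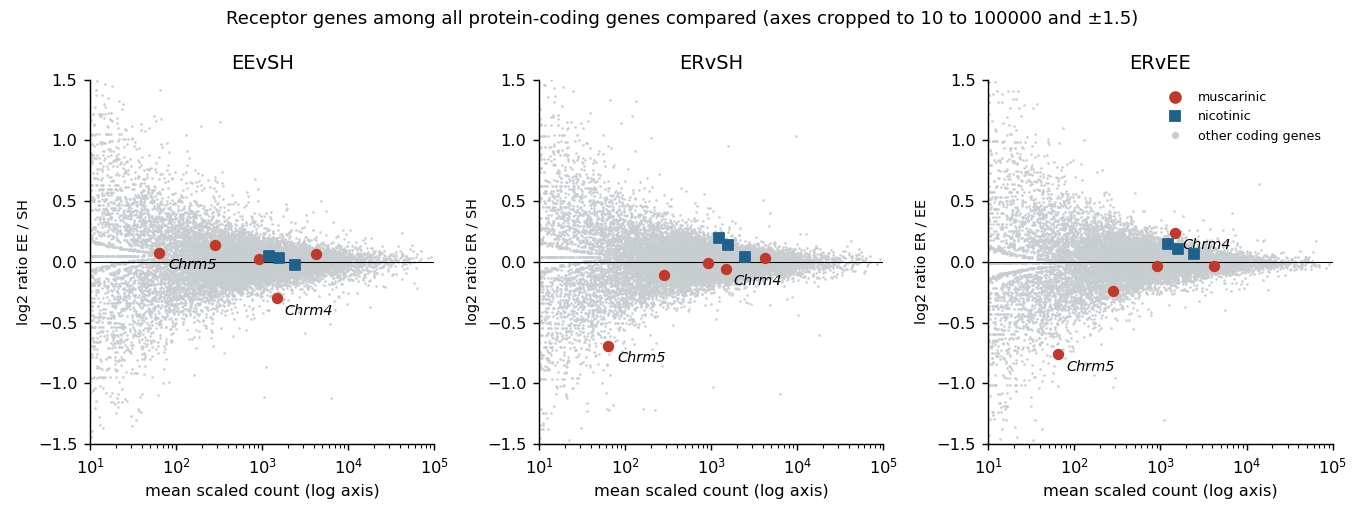
Log2 ratio (y axis, pseudocount 1) against mean scaled count (x axis, log scale) for all protein-coding genes compared (grey), the muscarinic genes (circles) and the nicotinic genes (squares) in EEvSH, ERvSH and ERvEE; both axes are cropped. Most receptor genes lie inside the grey cloud, with Chrm4 at −0.30 in EEvSH and Chrm5 at −0.69 in ERvSH and −0.76 in ERvEE.

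Of 13 further nicotinic subunit genes, 8 were listed and compared, and none met the size rule in any contrast. Genes of this and the following pathway lists that are described for their values were chosen after those were seen. Chrna5, an accessory subunit that alters the properties of Chrna4 and Chrnb2 channels, had 262.6 scaled counts in ER, 237.8 in EE and 200.2 in SH. Like Chrna7 and Chrnb2 it was highest in ER and lowest in SH. Its ratio was 1.31 in ERvSH (1.09 to 1.59), 1.10 in ERvEE (0.921 to 1.33) and 1.19 in EEvSH (0.979 to 1.44). Chrna3, its neighbor in the genome, which encodes a subunit of ganglionic receptors, had 69.8 scaled counts in ER, 78.6 in EE and 77.7 in SH. Chrna2, found in scattered interneurons, had 73.9, 76.5 and 93.6 in the same libraries. All intervals of Chrna2 and Chrna3 included 1. The muscle subunit genes Chrna1, Chrnb1 and Chrne, together with Chrna10 and Chrnb4, had means under 50, and their intervals also included 1. The median log2 ratio of the 8 genes was −0.17 in EEvSH, −0.25 in ERvSH and −0.030 in ERvEE. Of the 8, 5 had a mean under 50.

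The genes that make, move and break down acetylcholine were measured from the same libraries. Chat, which encodes the synthesizing enzyme choline acetyltransferase, had 7.18 scaled counts in ER, 14.5 in EE and 6.97 in SH, and its ratio in EEvSH was 2.08 with an interval of 0.784 to 6.08. Slc18a3, the vesicular acetylcholine transporter, had 15.4 in ER, 26.9 in EE and 10.95 in SH. Of the 49 genes compared in all pathway lists, it alone met the size rule, in EEvSH (2.45-fold, 1.17 to 5.50). Of all genes compared, 2.13% met it in that contrast. Slc5a7, the high-affinity choline transporter, had 145.7 in ER, 140.6 in EE and 121.5 in SH, with a ratio of 1.20 in ERvSH (0.935 to 1.54) and 1.16 in EEvSH (0.900 to 1.49). Chat and Slc18a3 each rest on few reads. Ache, the enzyme that breaks down acetylcholine, had 1920 scaled counts in ER, 2086 in EE and 1863 in SH. It was highest in EE, at 1.12 in EEvSH (1.05 to 1.19) and 0.920 in ERvEE (0.864 to 0.981). Of the 8 genes on this list, 7 had a ratio above 1 in EEvSH and 8 in ERvSH, against 8513 and 8516 of all 16775 genes compared, and these contrasts share the SH library. The interval lay above 1 for 3 of the 8 in EEvSH and 1 in ERvSH, against 1555 and 1273 of all 16775 genes. Of the 8, 3 had a mean under 50. The list median was 0.15 in EEvSH, 0.15 in ERvSH and 0.022 in ERvEE.

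Chaperones and prototoxins act on the nicotinic receptors themselves. The list held Ric3 and Tmem35a, which help nicotinic subunits assemble, and the Ly6 proteins Lynx1, Ly6h, Lypd1, Lypd6 and Lypd6b, which bind the receptors or share the fold of snake toxins. All 7 were compared and none met the size rule. Lypd6b had 168.2 scaled counts in ER, 119.9 in EE and 153.4 in SH, with a ratio of 1.40 in ERvEE (1.10 to 1.79). Lypd6 had 792.9 in ER, 690.6 in EE and 685.1 in SH, at 1.16 in ERvSH (1.04 to 1.28) and 1.15 in ERvEE (1.03 to 1.27). Lypd1 ran the other way, with 1506 in ER, 1680 in EE and 1628 in SH. Its ratio was 0.925 in ERvSH (0.861 to 0.993) and 0.896 in ERvEE (0.835 to 0.962). Ly6h was at 0.925 in ERvSH (0.896 to 0.955) and 0.997 in ERvEE (0.965 to 1.03). Of the 7 genes, the interval lay above 1 for 2 and below 1 for 2 in ERvSH, and likewise in ERvEE. Of all 16775 genes compared, it lay above 1 for 1273 and below 1 for 1323 in ERvSH. In ERvEE it lay above 1 for 1086 of them and below 1 for 1091. Lynx1, a brake on nicotinic currents, had 8136 in ER, 8528 in EE and 7781 in SH, at 1.10 in EEvSH (1.06 to 1.13) and 0.954 in ERvEE (0.925 to 0.984). Ric3, the chaperone best known for Chrna7, had 1494 in ER, 1408 in EE and 1536 in SH, at 0.973 in ERvSH (0.905 to 1.05), where Chrna7 was at 1.14. The list as a whole had a median log2 ratio of −0.017 in EEvSH, 0.026 in ERvSH and 0.044 in ERvEE.

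None of the 13 genes of the Gq pathway and none of the 13 of the Gi pathway met the size rule. Their median log2 ratios ran from −0.027 to 0.049 over both lists and the 3 contrasts. Itpr1, the calcium release channel downstream of phospholipase C, had 5348 scaled counts in ER, 6015 in EE and 5151 in SH, with a ratio of 1.17 in EEvSH (1.12 to 1.21) and 0.889 in ERvEE (0.856 to 0.923). Plcb1, the phospholipase that forebrain Gq receptors use, had 7554 in ER, 7882 in EE and 7119 in SH, at 1.11 in EEvSH (1.07 to 1.14). Both were highest in EE. Rgs4, which shortens signals of Gq and Gi receptors and regulates autoreceptors of cholinergic neurons, had 6420 in ER, 7585 in EE and 6023 in SH. It was the widest of these genes in EEvSH at 1.26 (1.22 to 1.30), and stood at 0.847 in ERvEE (0.818 to 0.876) and 1.07 in ERvSH (1.03 to 1.10). The inwardly rectifying channel genes Kcnj3, Kcnj6 and Kcnj9 had intervals that included 1 throughout.

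**Figure D5:**
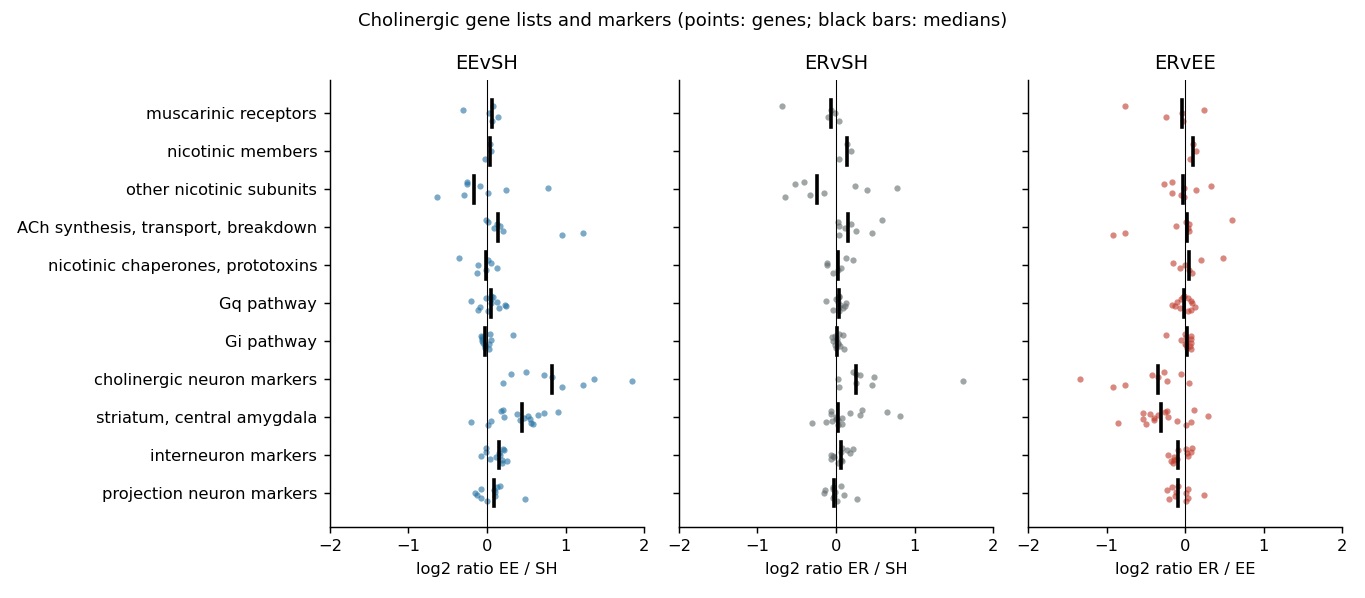
Log2 ratio (x axes, pseudocount 1) of each compared gene in the receptor, pathway and marker lists for EEvSH, ERvSH and ERvEE; points are genes, black bars list medians. The receptor and signalling lists center near 0, while cholinergic neuron markers (median 0.83) and markers of striatum and central amygdala (0.45) lie higher in EEvSH. Of the 9 cholinergic markers, 7 had a mean under 50. The EEvSH interval lay above 1 for 2 of the 9, against 1555 of all 16775 genes compared.

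Markers of other cells and regions differed between the pools, and their values stand here beside the receptors. The glutamatergic marker Slc17a7 had 58098 scaled counts in ER, 57766 in EE and 57756 in SH, and Rspo2, a marker of BLA projection neurons, had 1800, 1952 and 1817, so the defining markers of the labelled tissue were present. The BLA borders the striatum and the central amygdala. Of 17 markers of these regions, 16 were compared, with a summed level of 15828 in ER, 18552 in EE and 16018 in SH. In EEvSH 15 of 16 were above 1 and 4 met the size rule as higher (Drd2, Foxp2, Scn4b and Nts), with a median log2 ratio of 0.45. Of all 16775 genes compared, 8513 were above 1 in EEvSH and 200 met the rule as higher. In ERvSH 11 of 16 were above 1, with a median of 0.022. There 2 met the rule as higher, Nts and Gpr6, the latter with a mean under 50. Of all genes, 8516 were above 1 in ERvSH and 137 met the rule as higher. In ERvEE 12 of 16 were below 1, with a median of −0.30, and Adora2a met the rule as lower (0.550, 0.430 to 0.700). Of all genes, 8566 were below 1 in ERvEE and 155 met the rule as lower. The summed level of these markers was highest in EE, where Chrm4 was lowest. Penk, a neuropeptide gene, was the largest part of this sum, with 5046 scaled counts in ER, 6650 in EE and 4972 in SH. Single markers did not all follow the sum. Ppp1r1b, which encodes a phosphatase inhibitor of striatal projection neurons, was lowest in EE as Chrm4 was, at 3367 in ER, 3194 in EE and 3681 in SH, with a ratio of 0.868 in EEvSH (0.827 to 0.910) and 1.05 in ERvEE (1.003 to 1.11). Gpr6 and Tac1 were highest in ER. None of the 16 was at 0 in a library, and Drd1, a marker of the striatal neurons that carry Chrm4, was level at 989.9 in ER, 983.2 in EE and 973.9 in SH.

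Markers of cholinergic neurons had a summed level of 695.5 in ER, 819.9 in EE and 584.6 in SH over 9 of 10 genes, 7 of them with a mean under 50. All 9 were above 1 in EEvSH and in ERvSH, against 8513 and 8516 of all 16775 genes compared, and these contrasts share the SH library. The interval lay above 1 for 2 of the 9 in EEvSH and 1 in ERvSH, against 1555 and 1273 of all 16775 genes. Most of the sum was Tacr3, a tachykinin receptor also found in other neurons, at 467.8 in ER, 565.5 in EE and 401.3 in SH. Lhx8 and Gbx1, which specify basal forebrain cholinergic neurons, had at most 6.20 scaled counts in any library. For the dopamine neurons in which Chrm5 is best known, Th had 47.2 scaled counts in ER, 38.3 in EE and 33.9 in SH, with a ratio of 1.39 in ERvSH (0.875 to 2.24). Of the other 4 dopaminergic markers compared, Slc18a2, the vesicular monoamine transporter, was at 1.249 in ERvSH (1.02 to 1.54) and Aldh1a1 at 1.03 (0.854 to 1.255). Nr4a2, which is also on the list of claustrum and endopiriform markers, was at 0.956 in that contrast (0.896 to 1.02). Pitx3 rests on few reads, with 4.10 scaled counts in ER, 4.14 in EE and 9.96 in SH, and was at 0.412 (0.0943 to 1.43). The markers thus lay on both sides of 1, and none of the 5 was at 0. The rest of the 8 dopaminergic markers, Slc6a3, Foxa2 and En1, were not matched by name among the listed genes. Markers of inhibitory interneurons summed to 30493 in ER, 33486 in EE and 29495 in SH. The largest parts of this sum were Gad1, at 8623 in ER, 9621 in EE and 8456 in SH, and Gad2, at 8388, 9529 and 7961. The EEvSH interval lay above 1 for 8 of these 12 markers, against 1555 of all 16775 genes. The 15 genes common to all neurons summed to 369677 in ER, 373075 in EE and 368930 in SH. The part of these cell populations in the values of Chrm2, Chrm4, Chrm5, Chrna7 and Chrnb2 was not tested.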

How the data were processed

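RNA-seq was run on polyadenylated RNA from BLA micropunches, 1 pooled library of 10 rats for each of SH, EE and ER. The authors aligned reads with HISAT2 and scaled gene counts with DESeq2, and deposited these values, a normalised signal for each gene. Versions, genome build and counting setting: not given in the sources used here. In each library these values were whole multiples of the value of 1 read (1.0258 in ER, 1.0339 in EE and 0.995841 in SH), and 100% came out whole within 0.001 of a read, so reads could be recovered. Pooling removes the spread between rats.

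Protein-coding genes with a mean scaled count above 1 were compared. Ratios carry no pseudocount and log2 ratios a pseudocount of 1. Levels have exact 95% Poisson intervals, and ratios and shares exact 95% binomial (Clopper-Pearson) intervals. All cover counting error only, because no condition has a replicate library. The reads carry no molecular identifiers and cannot be counted as independent molecules, so the counting error may be larger than these intervals. A gene at 0 in 1 library met the size rule if its interval excluded 1. No p-value was computed, since each condition has 1 library. The intervals and the size rule were tested on simulated data, drawn for EEvSH with counting error alone. That is the error the intervals assume, so the simulation could not check spread between rats or pools. The receptor genes, lists and rules were chosen with earlier results of these data known. Named genes were the 8 receptors, Chat, Slc18a3, Slc5a7 and Ache, and list genes that met the size rule with a mean of at least 50. The 5 genes nearest to a receptor that met the rule were named too. Others are marked as chosen after their values were seen. The marker genes Slc17a7, Rspo2, Drd1, Penk, Ppp1r1b, Gpr6, Tac1, Tacr3, Lhx8, Gbx1, Th, Slc18a2, Aldh1a1, Nr4a2, Pitx3, Gad1 and Gad2 were also chosen in that way. Python 3.11.15 (numpy 2.4.6, pandas 2.3.3, scipy 1.17.1, matplotlib 3.10.9) and R 4.3.3 with edgeR 4.0.16 (alternative scaling factors) were used. Some genes of the pathway lists are not reported here by name.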

Additional observations from a re-analysis of the deposited data

How the results depend on the processing

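No paired analysis was possible because each condition had 1 library. Scaling by total reads, edgeR TMM, upper quartile or 15 pan-neuronal genes and pseudocounts of 0.5 and 5 left all 144 recomputed log2 ratios of the receptor genes inside their counting intervals. The scalings moved every log2 ratio by at most 0.0202, with pan-neuronal genes in ERvSH. A shift that small could not take a ratio outside its interval, so this outcome is no check of the ratios. Among the receptor genes, only the EEvSH interval of Chrm1 came to include 1, when libraries were scaled by total reads (0.9995 to 1.09). At a 2-fold rule no receptor gene was called, so the calls of Chrm5 in ERvSH and ERvEE, at 1 each, went to 0. The counts over all genes followed the rule. In EEvSH they were 200 higher and 158 lower as reported, 109 and 89 at 2-fold, 399 and 319 at 5/4-fold, 843 and 741 without the interval, and 78 and 54 with a mean of at least 50. In ERvSH they were 137 and 145 as reported, 75 and 89 at 2-fold, 285 and 260 at 5/4-fold, 752 and 745 without the interval, and 44 and 52 with a mean of at least 50. In ERvEE they were 130 and 155 as reported, 73 and 94 at 2-fold, 266 and 283 at 5/4-fold, 680 and 829 without the interval, and 38 and 54 with a mean of at least 50. Depth limits Chrm5 and Chrm2 most, and no value here measures variation between rats or pools.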

Other observations

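The remaining marker lists gave the following values. Claustrum and endopiriform markers (6 genes) had a median log2 ratio of −0.051 in EEvSH, −0.018 in ERvSH and 0.065 in ERvEE. Dopaminergic markers (5 of 8 genes compared) had medians of 0.16, 0.049 and 0.16 in these contrasts, and BLA projection neuron markers (11 of 12) had medians of 0.086, −0.024 and −0.096. Markers of hypothalamus and medial amygdala (7 of 13, 4 of them with a mean under 50 and 1 at 0 in a library) had medians of 0.26, 0.35 and −0.32. Among them Cartpt, a neuropeptide gene, had 48.2 scaled counts in ER, 54.8 in EE and 110.5 in SH. It was low in both ER and EE, with a ratio of 0.436 in ERvSH (0.303 to 0.619) and 0.496 in EEvSH (0.350 to 0.694), which share the SH library. Nts, the gene for the neuropeptide neurotensin and a marker of central amygdala, ran the other way, with 88.2 scaled counts in ER, 105.5 in EE and 55.8 in SH and a ratio of 1.58 in ERvSH (1.12 to 2.26) and 1.89 in EEvSH (1.35 to 2.67).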
